A study of Mus musculus with 2 samples.

Results

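Killer lectin-like receptors and related natural killer (NK) cell genes were followed on 2 arrays as 28 of the 19324 genes that the platform annotation names, measured by 36 of the 45101 probe sets in the value table. They were chosen by name alone: every symbol in the platform annotation had to start with Klr, or the gene had to be Ncr1, Nkg7, Hcst, Tyrobp, Cd96 or Crtam. Of the 36 probe sets, 4 name 2 close relatives each. The miR-125a KO group was 1 RNA pool from miR-125a-deficient mice, and the WT group was 1 RNA pool from their wild-type littermates. Both pools came from regulatory T (Treg) cells that were positive for CD4 and high for CD25, sorted from spleens of mice aged 6 to 8 weeks with no agent given. The strain, the way the allele was deleted and the number of mice in each pool are not given in the sources used here. The sort used no Foxp3 reporter, per the labels' protocols. With 1 array per genotype no test between the pools was possible, and every difference below compares 2 pooled samples.

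Killer lectin-like receptors are type II membrane proteins, and many are encoded in a single cluster, the NK gene complex. Inhibitory members carry tyrosine motifs that recruit phosphatases, whereas many activating members have short tails and signal through the adaptors DAP10 (encoded by Hcst) and DAP12 (encoded by Tyrobp). Many members, though not all, read MHC class I and related molecules on other cells and set the threshold at which NK cells and cytotoxic T cells respond. On T cells, several of them appear after activation.

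The microRNA removed in the miR-125a KO mice is shown by its 5p arm, the one that carries the seed of the miR-125 family, with the seed, bases 2 to 8, in capitals. The 3p arm of the same precursor is not printed. The position of the 5p arm in GRCm38.p6 is chr17:17830817-17830840 on the plus strand, and the sequence is from RefSeq.
mmu-miR-125a-5p: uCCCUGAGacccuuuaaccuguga
The number of probe sets naming Mir125a was 0, so its loss could not be read from these arrays.

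In the RefSeq gene table of GRCm38.p6, 20 of the genes lie on chromosome 6, 4 on chromosome 7, and 1 each on chromosomes 9 and 16. Klre1, Klrd1, Klrk1, Klrc3, Klrc2 and Klrc1 follow each other on chromosome 6 with 0 other protein-coding genes between any neighbours. Klra16 was placed on no main chromosome sequence and Klra22 had no record in that table. Ly49 genes differ in number between mouse strains, and how the probes match the alleles of these mice was not tested.

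Promoters of 22 of the 28 genes were in the RefSeq table. The 250 bases before the start site are printed for Klrc1 and Klrk1, whose signals were lower in the miR-125a KO pool. They are also printed for Klre1, whose signal was higher there, and for Klra9 and Klra3, whose shared probe set was higher. Capitals mark the RUNX motif TGNGGT on either strand. The first start site listed for Klre1 was used. The sequences lie at chr6:129678974-129679223 (minus strand) for Klrc1, chr6:129623865-129624114 (minus strand) for Klrk1, chr6:129577963-129578212 (plus strand) for Klre1, chr6:130193113-130193362 (minus strand) for Klra9 and chr6:130337627-130337876 (minus strand) for Klra3, all in GRCm38.p6.
Klrc1: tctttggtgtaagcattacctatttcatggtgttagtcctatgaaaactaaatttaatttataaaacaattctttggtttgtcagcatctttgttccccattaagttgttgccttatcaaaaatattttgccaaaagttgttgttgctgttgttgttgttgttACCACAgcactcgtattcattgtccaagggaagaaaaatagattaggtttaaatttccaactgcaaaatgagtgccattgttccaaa
Klrk1: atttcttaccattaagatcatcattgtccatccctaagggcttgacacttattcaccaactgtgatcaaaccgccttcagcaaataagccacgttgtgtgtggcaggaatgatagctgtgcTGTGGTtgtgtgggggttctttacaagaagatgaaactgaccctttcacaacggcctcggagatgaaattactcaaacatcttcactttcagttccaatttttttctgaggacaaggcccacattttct
Klre1: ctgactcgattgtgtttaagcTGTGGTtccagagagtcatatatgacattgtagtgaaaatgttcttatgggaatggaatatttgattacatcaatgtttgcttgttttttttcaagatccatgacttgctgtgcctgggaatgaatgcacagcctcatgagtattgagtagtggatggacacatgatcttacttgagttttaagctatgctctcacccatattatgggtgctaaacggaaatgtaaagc
Klra9: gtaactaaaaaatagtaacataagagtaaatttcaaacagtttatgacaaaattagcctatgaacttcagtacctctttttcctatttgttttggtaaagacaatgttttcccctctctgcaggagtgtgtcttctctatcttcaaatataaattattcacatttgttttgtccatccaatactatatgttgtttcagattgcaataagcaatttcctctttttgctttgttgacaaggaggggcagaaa
Klra3: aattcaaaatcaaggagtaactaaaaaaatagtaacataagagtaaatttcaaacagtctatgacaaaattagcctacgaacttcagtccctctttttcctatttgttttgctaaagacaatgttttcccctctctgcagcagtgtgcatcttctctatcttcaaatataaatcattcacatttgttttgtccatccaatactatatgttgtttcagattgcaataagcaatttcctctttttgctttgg
The RUNX motif occurred once in each of the first 3 sequences, and 0 times in those of Klra9 and Klra3. Its absence was not shared by the other Ly49 genes described below as higher. The promoters of Klra7, at either start site, and of Klra5 are not printed and had 1 RUNX match each. The match of Klre1 depends on the start site, since the second one listed for it had 0 RUNX matches and 1 ETS match. The table holds 28 promoters for the 22 genes, because some genes have 2 start sites whose stretches may overlap and were counted separately. The RUNX motif was found in 18 of these 28 and in 40.1% of the 32851 promoters in the table. The ETS motif AGGAAG was found in 11 of the 28 and in 29.5% of all, the T-box motif AGGTGTGA in 1 (that of Nkg7) and in 1.12%, and the AP-1 motif TGANTCA in 0 and in 6.75%. Both strands were searched for each motif, and the only matches that shared bases within the promoters of these genes were 2 ETS matches in that of Klrb1c. The Klra9 and Klra3 stretches aligned with 83.3% identical positions, the highest value among the first listed Klra and Klrc promoters, and these 2 genes also share 1 probe set. Such matches describe the letters only.

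The unit of each value is the MAS5 signal, the authors' log2 value turned back to a linear scale on which the 2% trimmed mean of each array is 500.0. A probe set counted as past the minimum when its mean signal over the 2 arrays reached 62.3, the median over probe sets. Of the 36 probe sets, 12 were past it, all 12 with a signal above it on both arrays. The other 24 were below, and for those the signals are given without a ratio. The 1 member above the minimum on a single array was Klrg1, an inhibitory receptor of highly differentiated T and NK cells that binds E-cadherin. Its signal was 38.5 in the miR-125a KO pool and 69.7 in the WT pool, just under the minimum on average, while the dimmest probe set just past it was that of Klre1, at 163 and 104.

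**Figure D1:**
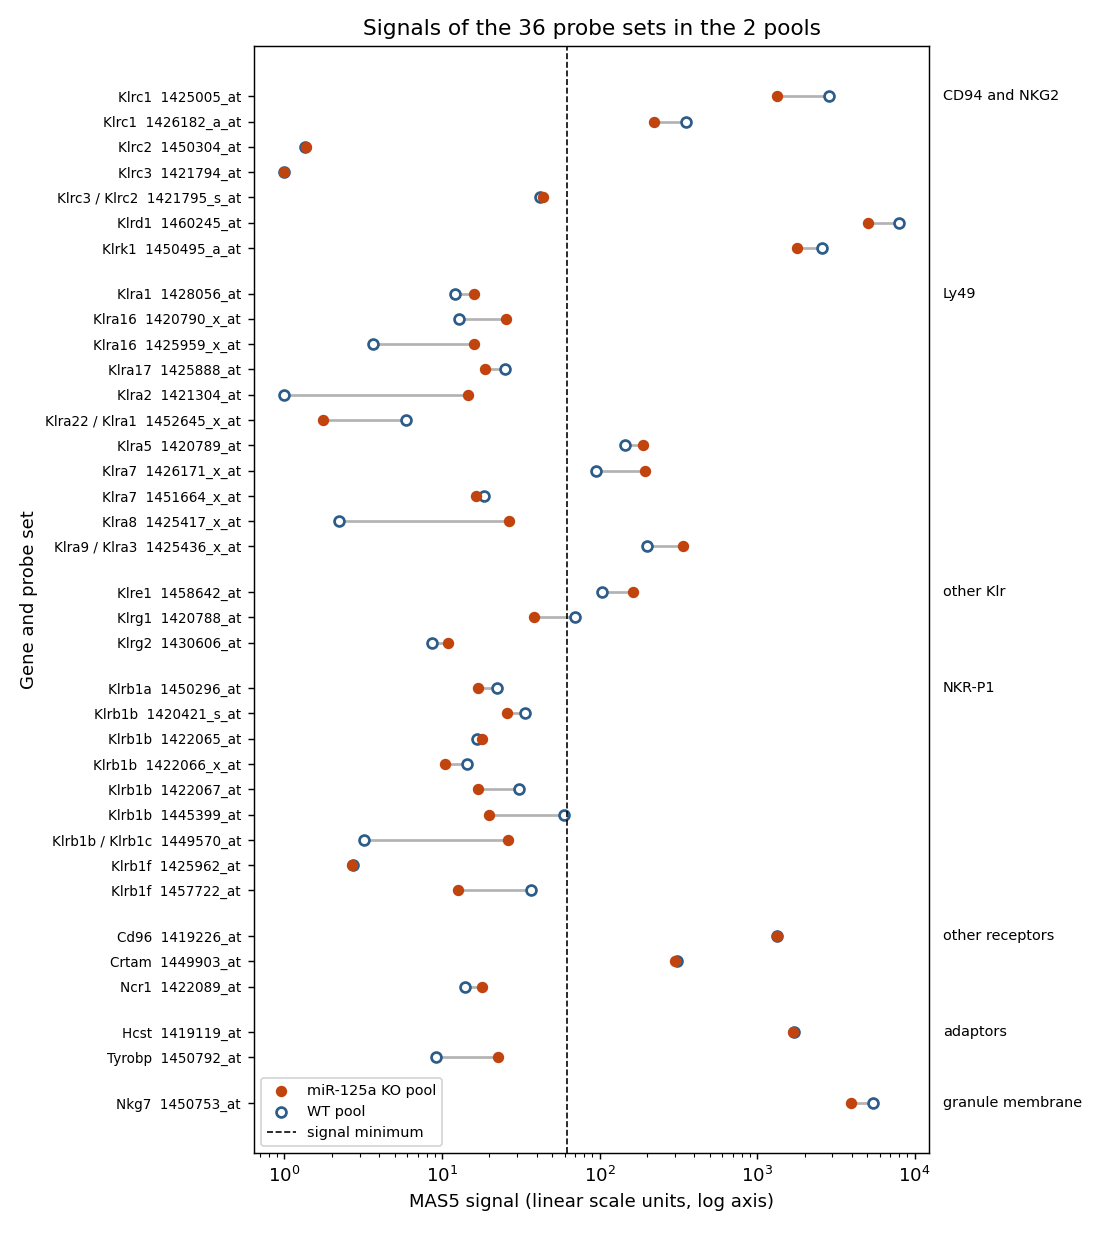
MAS5 signal (log axis) of each of the 36 probe sets in the miR-125a KO pool (filled) and the WT pool (open), grouped by receptor family, with the signal minimum as a dashed line. Of the 36, 12 lie past the minimum. Among these the 4 of the CD94 and NKG2 family are lower in the miR-125a KO pool and the 3 of the Ly49 family are higher.

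The log2 ratio of a probe set is the log2 of the miR-125a KO signal plus 16.3 over the WT signal plus 16.3, where 16.3 is the 25th percentile of all signals, so folds of dim genes are understated. At 2-fold or more, 0 of the 12 were higher and 1 was lower in the miR-125a KO pool, beside 1.04% and 1.54% of 22519 probe sets. At 1.5-fold or more, 2 were higher and 3 lower, beside 4.64% and 7.77%. After loess scaling, the higher calls among all probe sets made up 51.5% of calls in place of 40.3%. The median ratio of the 12 was -0.03, and that of all probe sets past the minimum was also -0.03. The interquartile range of the 12 ran from -0.56 to 0.41, and that of all probe sets from -0.26 to 0.19. Without _x_at and _s_at probe sets the median of the 10 left was -0.24. The median of the 12 thus held a lower, a higher and an even group of genes, described in turn below.

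The yardstick for a single ratio is the probe-set SD, the spread between the ratios of the 2 brightest probe sets of 1 gene. It was taken in groups by the mean signal of the pair, whose 2 signals may differ, and leaves out variation between mice. Of the 12, 4 were lower and 2 higher by at least 2 probe-set SDs, beside 7.78% lower and 5.83% higher of all probe sets. A further 4 lay within 1 SD of 0. This SD describes the array and is no test of genotype.

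CD94, encoded by Klrd1, pairs with NKG2 proteins, and the pair with NKG2A, encoded by Klrc1, is an inhibitory receptor for the non-classical MHC molecule Qa-1. Both chains were lower in the miR-125a KO pool. Klrd1 had a signal of 5065 in the miR-125a KO pool and 7919 in the WT pool. Its log2 ratio was -0.64 (probe-set SD 0.16), 1.56-fold lower.

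Klrc1 had the lowest ratio of the 12. Its brighter probe set, 1425005_at, stood at 1346 in the miR-125a KO pool and 2839 in the WT pool, 2.10-fold lower. The log2 ratio there was -1.07, against a probe-set SD of 0.21. Its other probe set, 1426182_a_at, stood at 221 in the miR-125a KO pool and 352 in the WT pool, a ratio of -0.63 on the log2 scale against an SD of 0.32. Both probe sets thus pointed the same way, and 1 of them reached 2-fold. The promoter of Klrc1 is the first of those printed above.

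Klrk1 encodes NKG2D, an activating receptor for stress-induced ligands that signals through DAP10. Its signal was 1789 in the miR-125a KO pool and 2591 in the WT pool, a difference of -0.53 on the log2 ratio scale (probe-set SD 0.21). It differed in the same direction as Klrc1 and its neighbour Klrd1, by less than 2-fold.

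Klrc2 and Klrc3 encode the NKG2C and NKG2E partners of CD94. The probe set naming Klrc2 alone was at 1.36 in the miR-125a KO pool and 1.35 in the WT pool, and that naming Klrc3 alone was at 1 in both pools, the lowest deposited value. The probe set naming both was at 43.8 in the miR-125a KO pool and 41.8 in the WT pool, below the minimum. Of the NKG2 chains, those of Klrc1 and Klrk1 were the ones measured past the minimum.

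Ly49 receptors, the Klra genes, are the mouse receptors for classical MHC class I, and most of them inhibit. The 3 Ly49 probe sets past the minimum were all higher in the miR-125a KO pool, with a median log2 ratio of 0.72. Klra7, which encodes the inhibitory receptor Ly49G, was at 193 in the miR-125a KO pool and 94.3 in the WT pool on probe set 1426171_x_at. Its log2 ratio was 0.92 (probe-set SD 0.38), 1.89-fold higher. It passed 2-fold after loess scaling, at 1.01, and with a pseudocount of 1, at 1.03. The other Klra7 probe set, 1451664_x_at, was dim, at 16.5 in the miR-125a KO pool and 18.4 in the WT pool, and did not show the difference.

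The probe set that names both Klra9 and Klra3, the genes of the inhibitory receptors Ly49I and Ly49C, was at 337 in the miR-125a KO pool and 199 in the WT pool. Its log2 ratio was 0.72 (probe-set SD 0.32), 1.65-fold higher, and which of the 2 genes gave the signal cannot be told. Klra5, which encodes the inhibitory Ly49E, was at 189 in the miR-125a KO pool and 145 in the WT pool. Its ratio of 0.35 (probe-set SD 0.38) was within 1 probe-set SD of 0. Of the 3, those of Klra7 and of Klra9 and Klra3 have the suffix _x_at, which Affymetrix gives to probe sets that can bind several transcripts, so they may share targets.

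Klre1 encodes a receptor that pairs with the KLRI proteins. It lies directly beside Klrd1, yet its signal was higher, at 163 in the miR-125a KO pool and 104 in the WT pool. The log2 ratio was 0.58 (probe-set SD 0.38), 1.498-fold higher, which is just under 1.5-fold and under 2 probe-set SDs. Adjacent genes of the cluster thus had ratios of opposite sign, at 0.58 for Klre1 and -0.64 for Klrd1.

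The other 8 Ly49 probe sets were below the minimum, with signals from 1.76 to 26.8 in the miR-125a KO pool and from 1 to 25.3 in the WT pool. At such signals no direction is read for them as a group. Klra8, which encodes Ly49H, an activating receptor for a cytomegalovirus protein, was at 26.8 in the miR-125a KO pool and 2.21 in the WT pool. Klra2, which encodes Ly49B, was at 14.7 in the miR-125a KO pool and at the lowest value, 1, in the WT pool. These signals are far below the minimum, where MAS5 values scatter widely, and no fold is given. The 2 probe sets of Klra16 were at 25.6 and 16.0 in the miR-125a KO pool, against 12.8 and 3.64 in the WT pool. The remaining probe sets of this group, those of Klra1, Klra17 and the pair Klra22 and Klra1, spanned 1.76 to 18.7 in the miR-125a KO pool and 5.92 to 25.3 in the WT pool.

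NKR-P1 receptors, the Klrb1 genes, bind Clec2 proteins rather than MHC molecules, and Klrb1c encodes NK1.1, a standard marker of NK cells in some strains. All 9 of their probe sets were below the minimum. The signals ran from 2.69 to 26.2 in the miR-125a KO pool and from 2.71 to 59.4 in the WT pool. At such signals no direction is read for the family. The highest of them, 1445399_at for the inhibitory receptor gene Klrb1b, was at 19.9 in the miR-125a KO pool and 59.4 in the WT pool. The 4 other probe sets naming Klrb1b alone stayed between 10.5 and 25.9 in the miR-125a KO pool and between 14.3 and 33.8 in the WT pool. The 1 probe set that covers Klrb1c, shared with Klrb1b, was at 26.2 in the miR-125a KO pool and 3.22 in the WT pool. Klrb1a was at 17.0 in the miR-125a KO pool and 22.2 in the WT pool. The probe sets of Klrb1f were at 2.69 and 12.6 in the miR-125a KO pool, against 2.71 and 36.5 in the WT pool. Klrg2, a Klr gene outside these families, was at 11.0 in the miR-125a KO pool and 8.59 in the WT pool. No level of an NKR-P1 gene was therefore measured well enough to compare.

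The receptors of the immunoglobulin superfamily were even between the pools where they could be read. Cd96 binds the poliovirus receptor homologue encoded by Pvr, and its signal was 1335 in the miR-125a KO pool and 1344 in the WT pool. Crtam, a receptor for the adhesion molecule encoded by Cadm1, was at 302 in the miR-125a KO pool and 310 in the WT pool. Their log2 ratios of -0.01 and -0.03 were within 0.11 probe-set SDs of 0 and were above 0 under each of the 3 other scalings, at up to 0.03 for Cd96 and 0.04 for Crtam. Ncr1, which encodes NKp46, a receptor that defines NK cells and other innate lymphocytes, was below the minimum, at 18.0 in the miR-125a KO pool and 14.0 in the WT pool.

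Of the adaptors, Hcst, the partner of NKG2D, was at 1691 in the miR-125a KO pool and 1713 in the WT pool. Its log2 ratio of -0.02 (probe-set SD 0.21) contrasts with the -0.53 of Klrk1, and it was 0.02 under the scaling to equal medians. Tyrobp, the adaptor used by activating Ly49 receptors, was below the minimum, at 22.8 in the miR-125a KO pool and 9.12 in the WT pool. Nkg7 encodes a membrane protein of cytotoxic granules that promotes their release. It was at 3969 in the miR-125a KO pool and 5438 in the WT pool. The ratio was -0.45 on the log2 scale (probe-set SD 0.16), 1.37-fold lower.

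**Figure D2:**
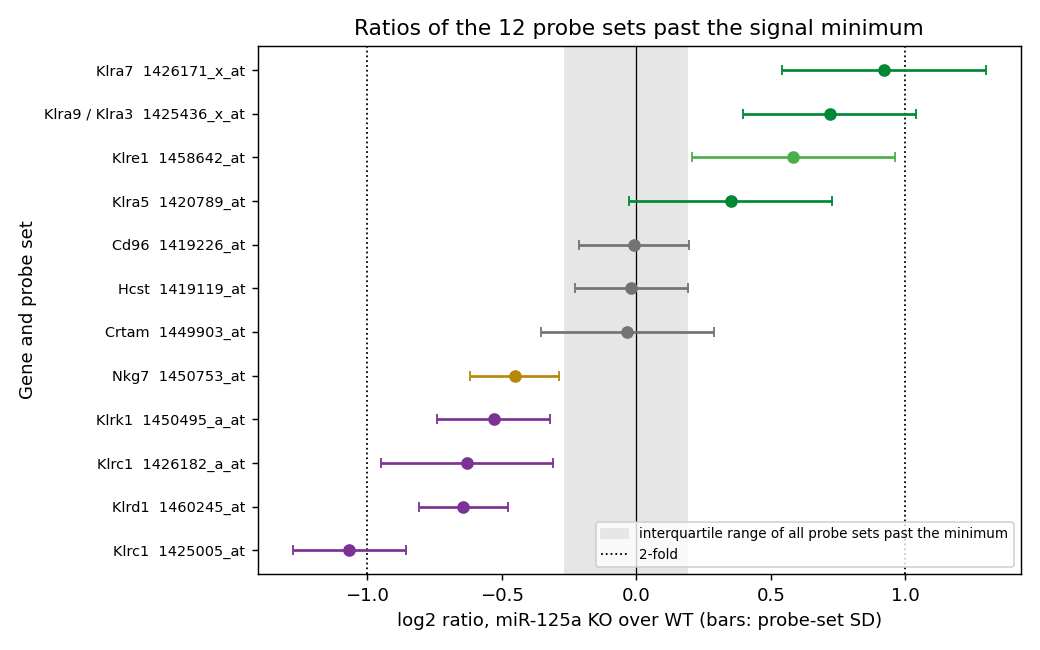
log2 ratio of miR-125a KO over WT for the 12 probe sets past the signal minimum, with the probe-set SD as bars. Purple marks CD94 and NKG2 genes, green Ly49 genes and Klre1, gold Nkg7, grey the other receptors and Hcst, and the shaded band is the interquartile range of all probe sets past the minimum. The purple points lie between -1.07 and -0.53 and the green points between 0.35 and 0.92.

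The split was set against other processing. All 98 ratios obtained for the 12 probe sets under 9 other scalings, pseudocounts, filters and probe set choices lay within 1 probe-set SD of the value given above. A change of filter or of probe set choice leaves the ratio of a kept probe set as it was. Only the other scalings and pseudocounts could therefore move a ratio or its sign. For 9 of the 12 the sign was the same throughout, and the 3 exceptions were the even genes Cd96, Crtam and Hcst. The ratio of Klrc1 on its brighter probe set ranged from -1.08 to -1.03, that of Klrd1 from -0.68 to -0.60 and that of Klra7 from 0.70 to 1.03.

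**Figure D3:**
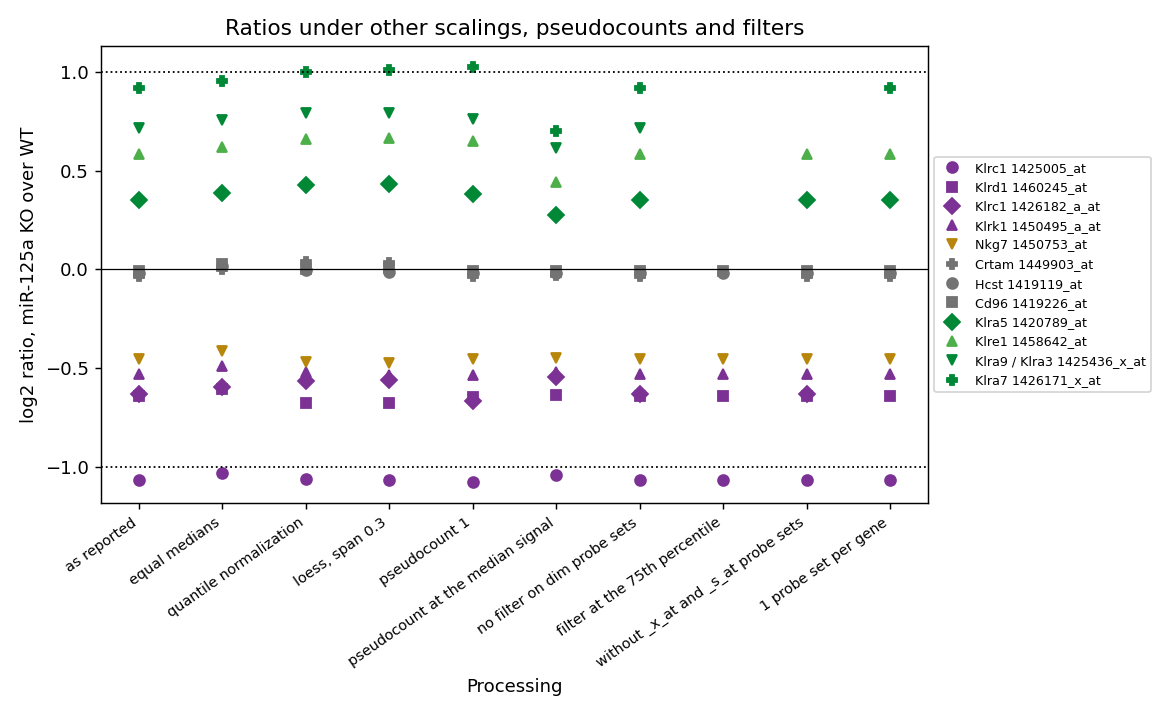
log2 ratio of miR-125a KO over WT for the same 12 probe sets as reported and under 9 other ways of processing, with dotted lines at 2-fold and colours as families. A point is missing where the filter or choice of probe sets leaves a probe set out, and is otherwise unchanged under those settings. Klrc1 on its brighter probe set stays beyond 2-fold lower, between -1.08 and -1.03, and Klra7 lies between 0.70 and 1.03.

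Genes that belong with these receptors were read from lists, with 1 probe set per gene, beside 1.08% of 10590 genes higher and 1.2% lower by 2-fold or more and a median log2 ratio of 0.01 over all genes. Of 7 ligands past the minimum, 0 reached 2-fold in either direction, and the median ratio was -0.23. Cdh1, which encodes the KLRG1 ligand E-cadherin, was at 552 in the miR-125a KO pool and 949 in the WT pool, with a ratio of -0.76. Clec2i, a lectin gene of the same cluster, had -0.50. H2-K1 and H2-D1, the classical MHC class I genes read by Ly49 receptors, had 0.19 and 0.09 on their brightest probe sets, but each had others past the minimum with ratios below 0, down to -0.65 for H2-K1 and -0.30 for H2-D1.

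Of 19 genes that signal behind the receptors, 0 were higher and 1 was lower by 2-fold or more, with a median ratio of -0.08. The 1 gene was Fcer1g, a signalling chain that partners activating receptors, at 103 in the miR-125a KO pool and 226 in the WT pool. Its ratio was -1.02 (probe-set SD 0.38), and it lay under 2-fold after each of the 3 other scalings, between -0.98 and -0.94. Lat2, an adaptor of the same kind as Lat, had -0.79, while Plcg2, a phospholipase, had 0.49 and Sh2d1a, the SLAM receptor adaptor SAP, had 0.47. Ptpn6, which encodes the phosphatase SHP-1 recruited by inhibitory receptors, was at 6036 in the miR-125a KO pool and 7865 in the WT pool, with -0.38 (-0.05 on its other probe set), and was named after its value was seen.

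Of 9 other receptors shared by NK and T cells, 0 reached 2-fold, with a median ratio of -0.22. Cd160, an MHC class I receptor, had -0.65 on its brightest probe set, but its second probe set past the minimum had 0.64, so no direction is given. Slamf7 had -0.39, and Ly9 and Cd48 had 0.21 and 0.16. Of 11 transcription factors of NK cells past the minimum, 9 were below 0 on the 1 probe set read per gene, beside 5194 of all 10590 genes. Their median was -0.18. Gata3, which also directs type 2 helper T cells, was the 1 at least 2-fold higher, with a ratio of 1.40. The sign of some depended on the probe set. Ets1 had -0.125 there but 0.053 to 0.147 on its others. Ikzf3 had -0.083, with 0.115 and -0.183 on its others. Zeb2 had -0.385, and 0.025 on its other one past the minimum. Runx3 was below 0 on both, at -0.178 and -0.464. Eomes, needed for NK cell maturation, had -0.33 on its brighter probe set and -0.01 on the other. Id2 had -0.44 on its brightest probe set by mean signal, with -0.14 and -0.62 on its others, Tox had -0.66, and Tbx21 had 0.24. Of 8 cytotoxic granule genes past the minimum, among 9 measured, Prf1, which encodes perforin, was the 1 beyond 2-fold, at -1.88. The list's median was -0.13. Gzmm, below the minimum on average, went the other way, at 67.6 in the miR-125a KO pool and 4.46 in the WT pool.

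**Figure D4:**
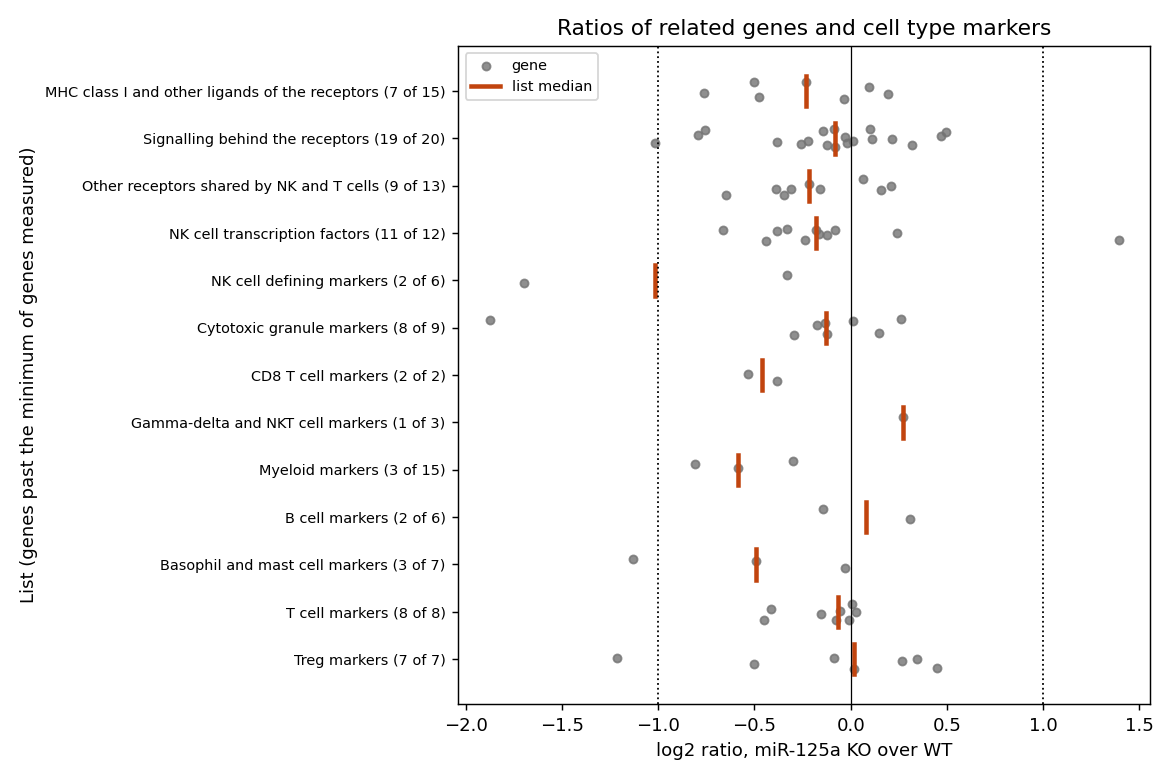
log2 ratio of miR-125a KO over WT for the genes of each list past the signal minimum (grey points) with the list median (bar), and the number past the minimum of those measured beside each name. Dotted lines mark 2-fold. The median of the signalling list is -0.08 and that of the ligands -0.23, and single genes such as Gata3 at 1.40 and Prf1 at -1.88 lie past 2-fold.

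Markers of the cells that could carry these receptors were measured beside them. Of 6 measured NK cell markers, 4 were below the minimum on average, among them Ncr1 as given above, Itga2 (33.8 in the miR-125a KO pool and 16.9 in the WT pool), Fcgr3 (28.3 and 42.7) and Itgam (6.86 and 1.08). The summed signal of the 6 was 845 in the miR-125a KO pool and 1581 in the WT pool, mostly from Eomes and Txk, which T cells also express. Txk, a Tec family kinase, was at 257 in the miR-125a KO pool and 871 in the WT pool, with a log2 ratio of -1.70.

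Cd8a was at 295 in the miR-125a KO pool and 435 in the WT pool, and Cd8b1 at 332 and 438, with ratios of -0.54 and -0.38, both under 1.5-fold and under 2 probe-set SDs. The 4 other probe sets of Cd8a past the minimum had ratios from -0.56 to 0.15. The summed signal of both was 627 in the miR-125a KO pool and 873 in the WT pool. The CD8 signals of these 2 probe sets were thus lower in the miR-125a KO pool, as were those of Klrd1, Klrc1, Klrk1 and Nkg7, and their part in these ratios was not tested. In RNA from pooled cells, fewer cells of a type and less RNA per cell cannot be told apart.

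Of 15 myeloid markers, 3 were past the minimum. Csf1r had a ratio of -0.30 and Cd68 one of -0.81, while Itgax was past it through the WT array alone, at 47.6 in the miR-125a KO pool and 79.7 in the WT pool. Among those below it on average, Lyz1 was at 65.7 in the miR-125a KO pool and 3.70 in the WT pool, and Lyz2 at 61.0 and 30.8. Itgam was also higher in the miR-125a KO pool, and the rest were lower. The summed signal over the 15 was 534 in the miR-125a KO pool and 787 in the WT pool. Of 7 basophil and mast cell markers 3 were past the minimum, with a median of -0.49 and sums of 652 in the miR-125a KO pool and 1106 in the WT pool. Kit, a growth factor receptor, had -1.13 and gave the largest part of both sums. Cpa3 had -0.49, and Fcer1a was even at -0.03. Below the minimum, Ms4a2 was higher, at 49.6 in the miR-125a KO pool and 23.1 in the WT pool, and Mcpt8, Cd200r3 and Hdc were lower. Of 6 B cell markers 2 were past it, with sums of 378 in the miR-125a KO pool and 355 in the WT pool. Of 3 measured markers of gamma-delta and NKT cells 1 was past it, Cd1d1, whose brighter probe set had 0.27 and whose other one past the minimum had -0.31, so no direction is given, with sums of 187 in the miR-125a KO pool and 232 in the WT pool. None of the marker genes in these lists was at the lowest value. The part of these cells in the ratios was not tested.

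The sorted cell type was checked against its own genes. The 8 T cell markers were all past the minimum, with a median ratio of -0.06, and so were the 7 Treg markers, with a median of 0.02. Foxp3, the Treg transcription factor, was the 1 of these 15 genes beyond 2-fold, at 694 in the miR-125a KO pool and 1631 in the WT pool, with a ratio of -1.21. Il2ra, which encodes the CD25 used in the sort, was at 18551 in the miR-125a KO pool and 15390 in the WT pool. Nrp1 was lower in the miR-125a KO pool, with ratios from -0.769 to -0.475 over its probe sets past the minimum. Ikzf2 was higher, at 0.447 and 0.247 on those past it. Treg genes were thus present in both pools.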

How the data were processed

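Affymetrix Mouse Genome 430 2.0 arrays, read in 1 colour, measured 2 pools, 1 per genotype. The authors deposited log2 values made with MAS5, per the submitters' processing notes, which give no version. MAS5 subtracts mismatch signal, so dim values scatter widely. Detection calls were not used here. The lowest deposited value, log2 0, was held by 473 probe sets of the miR-125a KO array and 552 of the WT array. Values were read with pandas 2.3.3 and numpy 2.4.6 (Python 3.11.15), and loess used statsmodels 0.14.6. Symbols came from the platform annotation: 34945 probe sets named 1 gene, 932 several and 9160 none, and 64 were controls. Entrez identifiers of 27 of the 28 genes were found in the RefSeq table.

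With 1 sample a group no p-value is given. Probe sets were counted at 2-fold, and the probe-set SD came from 5037 genes in 10 groups by signal (from the difference between a gene's 2 brightest probe sets, scaled to a single probe set). It was 0.16 in the brightest group, against 0.38 in the dimmest. Every member probe set was reported. Of each list the genes at 2-fold and up to 2 highest and 2 lowest were named, and all genes of the NK, CD8 and Treg marker lists could be. Some NK cell transcription factors were named after their values were seen. So were some cytotoxic granule, myeloid, basophil and mast cell markers below the minimum. The members and lists were chosen with earlier results of these data known. The calculation was tested on simulated data. The number of arrays limits the precision.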

Additional observations from a re-analysis of the deposited data

How the results depend on the processing

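The count of probe sets at least 2-fold higher was 1 with loess scaling and 1 with a pseudocount of 1, Klra7 in both, where it was 0 as reported. Without a filter on dim probe sets it was 2, the probe set of Klra8 and the one shared by Klrb1b and Klrb1c, and 2 were at least 2-fold lower, Klrc1 and 1445399_at of Klrb1b, all but Klrc1 below the signal minimum. With a fold of 1.5 in place of 2, 2 were higher and 3 lower, beside 4.64% and 7.77% of all probe sets, and with a fold of 3, 0 were lower. The median ratio of the members was -0.49 with a filter at the 75th percentile of signal, which left 6 of them and none of the Ly49 probe sets. The other alternatives kept both counts and moved the median by less than 1 probe-set SD, the furthest being -0.24 without _x_at and _s_at probe sets, where it was -0.03 as reported. The quantile and loess scalings turned the share of higher calls over all probe sets to 51.5%, in place of 40.3%. Of 100 list medians obtained under the alternatives, 4 moved by more than that SD. The median of the NK cell defining markers was -0.08 without a filter, where it was -1.02 over the 2 past the minimum. No paired analysis was possible because each genotype had 1 array. Dim signal limits what can be said of the 24 members below the minimum.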

Other observations

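Probe sets of a single gene were compared where the lists allowed it, and the genes named here were chosen after their values were seen. Kit, the receptor for stem cell factor, was lower in the miR-125a KO pool on both of its probe sets, at 285 in the miR-125a KO pool and 643 in the WT pool on one and at 34.4 in the miR-125a KO pool and 107 in the WT pool on the other, whose miR-125a KO signal was below the minimum and which passed it through the WT array alone. Tox, a transcription factor of NK and exhausted T cells, was lower on each of its 3 probe sets past the minimum, with log2 ratios of -0.66, -0.61 and -0.34. Their miR-125a KO signals of 65.2, 64.1 and 68.8 were just above the minimum, and each ratio was under 2 probe-set SDs (SD 0.38). Pvr, the ligand of CD96, had ratios from -0.47 to -0.09 on its 5 probe sets past the minimum. Zap70, a kinase of T and NK cell receptors, had -0.08 on its brightest probe set and 0.46 on its dimmest one.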
